A study of Mus musculus with 2 samples.

Results

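The genes described here encode the machinery that docks, primes and fuses synaptic vesicles at the presynaptic membrane. They were 37 of the 31040 genes in the count matrix and were chosen by symbol: 14 synaptotagmins, the SNARE proteins Snap25, Stx1a, Vamp1 and Vamp2, 3 synapsins, 3 SV2 proteins, 3 Rab3 GTPases, 3 complexins, 3 RIM proteins, 3 Munc13 proteins (Unc13a, Unc13b and Unc13c) and the ATPase Nsf. The question put to the data was which paralogue of each family each cell type used. All 37 had more than 200 UMIs (unique molecular identifiers, each counting 1 captured RNA molecule) over the named cell classes, between 326 for Cplx3 and 188594 for Syt1.

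The study was a single-nucleus RNA-seq experiment on prefrontal cortex from wild-type C57BL/6 male mice, 2 months of age. METH mice received methamphetamine at 5 mg/kg by intraperitoneal injection for 14 days, and Control mice received saline in the same way. Tissue of 3 mice was pooled in each group, and each group gave 1 library of nuclei counted with the 10x 3' chemistry. The deposited matrix marks its barcodes as library 1 or library 2 and does not say which of them is METH. No METH against Control difference is therefore given, and the values of the libraries stand beside each other. The libraries are not repeats of 1 condition. They differ in treatment, mice and library at once, and these cannot be told apart where their values differ.

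Synaptic vesicles fuse when vesicular synaptobrevin (Vamp1, Vamp2) zips together with syntaxin-1 and SNAP-25 on the plasma membrane, and the ATPase NSF takes the spent complexes apart. Synaptotagmins carry C2 domains. Synaptotagmin-1 and synaptotagmin-2 bind calcium and trigger fast release, synaptotagmin-7 acts as a slower calcium sensor, and several relatives do not bind calcium at all. Complexins hold and then help the assembled complex, Munc13 and RIM proteins prime vesicles at the active zone, Rab3 GTPases and synapsins tether vesicles to the release site and to each other, and SV2 proteins are glycoproteins of the vesicle membrane. Different synapses are known to use different paralogues of these families, so paralogue choice is one way in which neuron types differ in their release.

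Library 1 held 9890 barcodes with 31273163 UMIs and library 2 held 10876 barcodes with 35292937 UMIs. After a minimum of 500 genes and removal of predicted doublets, 18002 nuclei remained with a median of 2978 UMIs, and 154 barcode sequences occurred in both libraries. Marker genes named 8021 excitatory, 2450 inhibitory and 1410 striatal projection neurons, 59 cholinergic neurons, 169 neuroblasts, 305 astrocytes, 3060 oligodendrocytes, 117 differentiating oligodendrocytes, 352 oligodendrocyte precursors and 880 microglia, while 1053 nuclei stayed without a name. All names mean a likeness in markers. Striatal projection neurons and neuroblasts were present although the labels name the prefrontal cortex only. Median depth was 4386 UMIs in excitatory, 2861.5 in inhibitory and 2702.5 in striatal nuclei, against 811 in oligodendrocytes and 693 in microglia. Levels are CPM, the UMIs of a gene scaled to a fixed total of UMIs per class, and every interval is a 95% interval that covers counting error only, since nuclei of a pooled library are not replicates. A member was called higher or lower where its ratio passed 2-fold in the same direction in both libraries, among genes with at least 50 UMIs in the classes compared. No p-value is given. Alternative settings were run for the members only. Where they moved a member ratio printed with an interval by more than 1.5 times, its lowest and highest value follow the interval. Ratios printed without an interval carry no such range, even where they moved as far. Ratios of other release genes and ratios to the next class or subclass were not recomputed.

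RNA that floats free in droplets adds UMIs to every class and weighs more in nuclei of low depth. Slc17a7, the vesicular glutamate transporter of cortical excitatory neurons, stood at 302 and 532 CPM in microglia of libraries 1 and 2, against 320.3 and 423 CPM in excitatory neurons themselves. In inhibitory neurons it stood at 99.4 and 201 CPM. Of the 10 excitatory markers, 5 were highest in the excitatory class, and Slc17a7, Emx1, Tbr1, Sla and Nptx1 were not. Slc17a7 served as an index that gave each gene an upper limit for its free RNA level in each class, and myelin genes served for excitatory neurons. A level exceeded the limit where its counting interval lay above it. This is easier to show for genes with many UMIs, and the shares of genes given here were not matched for level. All 37 members exceeded that limit in excitatory neurons (82.2% of all genes tested did), 34 in inhibitory neurons (67.5% of genes) and 34 in striatal neurons (56.9% of genes). The limit was passed by 28 members in cholinergic neurons (45.7% of genes), 9 in neuroblasts (10.2% of genes), 8 in astrocytes (14.1% of genes) and 6 in differentiating oligodendrocytes (17.1% of genes). In oligodendrocytes 3 members exceeded it (12.6% of genes) and in microglia 0 did (11.2% of genes), so most member values in glia could not be told apart from free RNA.

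Among classes of at least 100 nuclei, excitatory neurons held the highest level of 12 members, inhibitory neurons of 8 and striatal projection neurons of 6. The highest class was taken as clear where both libraries put it first and the counting interval of its lead over the class that followed lay above 1. This held for 18 of 37 members, against 23.4% of all genes tested. Such a lead is easier to show for a gene with many UMIs. The members had a median of 5445 UMIs over the named classes, while a gene was tested from 50 UMIs. The share over all genes was not matched for level. Of the 11 clear in excitatory neurons, Syt1 stood at 4056 and 3965 CPM in libraries 1 and 2, against 2967 and 2983 CPM in inhibitory neurons, the next class. Snap25 stood at 1564 and 1439 CPM in excitatory neurons, against 966 and 940.3 CPM in striatal neurons. Sv2b reached 279.5 and 294 CPM in excitatory neurons, against 73.1 and 125 CPM in striatal neurons. The libraries did not overlap between the classes for any of these. The other members clear in excitatory neurons were Syt7, Syt16, Syt17, Stx1a, Syn1, Nsf, Rims1 and Unc13a, with ratios to the next class between 1.11 for Nsf and 2.50 for Syt17. Syt2, Rab3b and Rab3c were clear in inhibitory neurons, and Syt6, Syt10 and Sv2c in striatal neurons. The 59 cholinergic neurons, left out of this ranking, held Sv2c at 284 CPM, above the striatal level of 171 CPM, and Rab3b at 126 CPM, near the inhibitory level of 121 CPM.

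**Figure D1:**
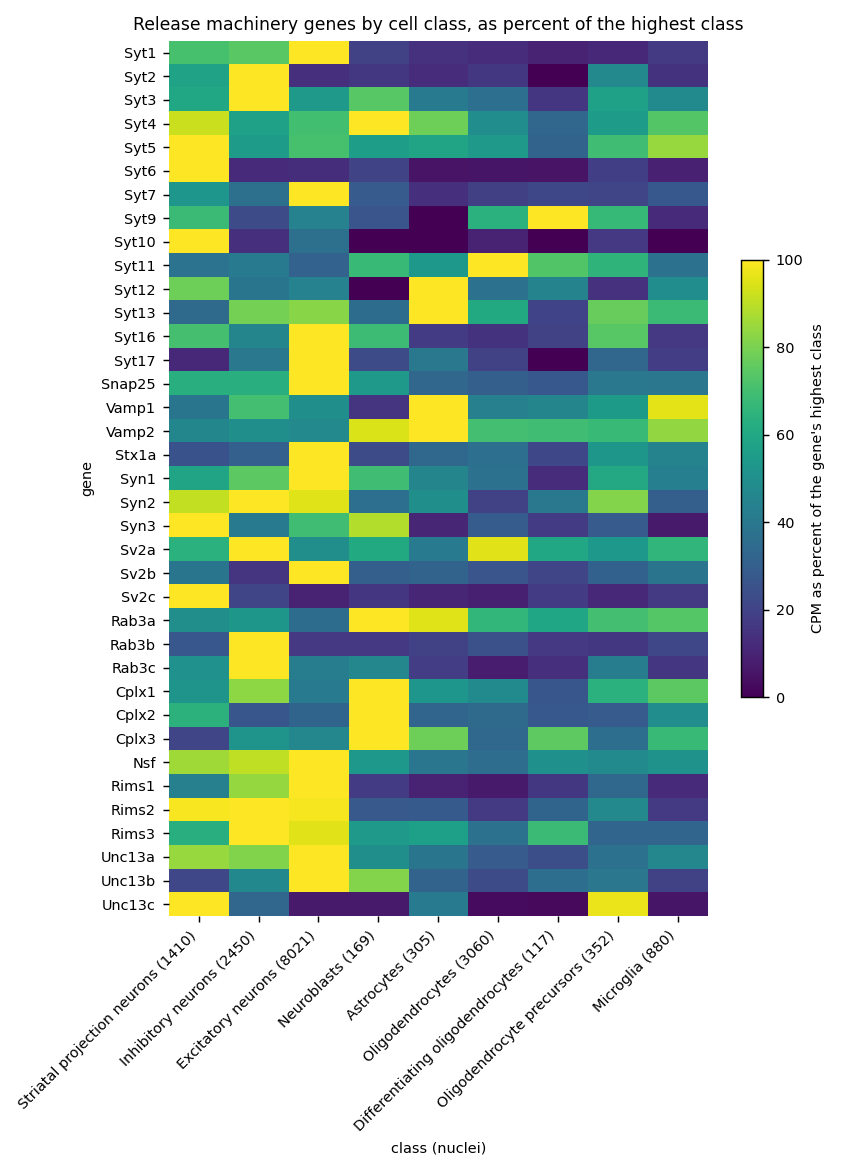
Each row is 1 of the 37 genes and each column a class of at least 100 nuclei, with the number of nuclei in brackets; colour gives the CPM of both libraries together as percent of the gene's highest class. Rows such as Sv2c, Syt6 and Syt10 are bright in striatal projection neurons, Syt2 and Rab3b in inhibitory neurons, and Sv2b, Stx1a and Syt7 in excitatory neurons.

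One member was clearly highest outside neurons. Syt11, a synaptotagmin that does not bind calcium, stood at 669.8 and 599 CPM in oligodendrocytes of libraries 1 and 2, against 501 and 443 CPM in differentiating oligodendrocytes, the next class. Its free RNA limit in oligodendrocytes was 246 CPM. Syt11 also passed that limit in astrocytes, oligodendrocyte precursors, differentiating oligodendrocytes and neuroblasts, so it was the member seen above free RNA in most of the non-neuronal classes. Astrocytes held the highest value of Syt12, Syt13, Vamp1 and Vamp2, and neuroblasts that of Syt4, Rab3a, Cplx1, Cplx2 and Cplx3, but none of these 9 was clear.

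Neurons were compared with glia first. Excitatory, inhibitory and striatal neurons together exceeded the pooled astrocytes, oligodendrocyte lineage and microglia in 16 of 37 members (11.7% of all genes tested were higher), and 1 member was lower (16.6% of genes). The median ratio was 2.17 over the members and 0.868 over all genes, a shift of -0.20 on the log2 scale. Scaling by the median over genes gave 19 members called, and among all genes called it put 51.9% on the higher side, against 41.4% without it. Rims1, an active zone scaffold that links Rab3 to Munc13, stood at 1447 and 1419 CPM in neurons of libraries 1 and 2, against 146 and 188 CPM in glia, a ratio of 8.46 (7.88 to 9.10, and 4.47 to 36.8 over the settings). Syt1 stood at 3828 and 3698 CPM in neurons, against 375 and 654 CPM in glia, a ratio of 7.11 (6.83 to 7.41, and 4.07 to 10.2 over the settings). Rims2, the RIM paralogue, stood at 694 and 637 CPM in neurons, against 122 and 161 CPM in glia, a ratio of 4.63 (4.28 to 5.01, and 2.66 to 28.4 over the settings). Neurons exceeded glia in both libraries for each of these, as the call requires. Syt7, the slow calcium sensor, stood at 295 and 308 CPM in neurons, against 57.9 and 79.4 CPM in glia, a ratio of 4.33 (3.87 to 4.86). Snap25 stood at 1435 and 1312 CPM in neurons, against 302 and 647 CPM in glia, a ratio of 2.79 (2.67 to 2.91, and 2.03 to 4.76 over the settings). The other members higher in neurons were Syt6, Syt10, Syt16, Syt17, Syn2, Syn3, Sv2b, Rab3c, Nsf, Unc13a and Unc13b, with ratios between 2.43 for Nsf and 5.04 for Syt10. With doublets kept, Snap25, Sv2b, Nsf, Unc13a and Syt6 lost their calls, and Snap25, Sv2b and Nsf also with equal weight for each nucleus.

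Syt11 was the member lower in neurons, at 209 and 215 CPM in neurons, against 566 and 490.3 CPM in glia, a ratio of 0.405 (0.387 to 0.424). It was no longer called after scaling by the median over genes or after subtraction of the free RNA limit, where 1 library missed 2-fold, though its ratio stayed between 0.370 and 0.479 over the settings. Vamp2 and Rab3a were not called in this comparison, whereas Syt1, Snap25, Nsf and Unc13a were higher in neurons. Vamp2, the main synaptobrevin of forebrain synapses, stood at 122 and 164 CPM in neurons, against 174 and 271 CPM in glia. Rab3a stood at 68.6 and 116 CPM in neurons, against 92.2 and 229.8 CPM in glia. The levels of Vamp2 and Rab3a were higher in library 2 than in library 1, in glia and in neurons alike. The free RNA index was higher in library 2 as well, at 222 and 499.5 CPM of Slc17a7 in oligodendrocytes of libraries 1 and 2. The part of free RNA in these ratios was not tested gene by gene. Subtracting the upper limit raised the number of members called to 34.

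Gene length moved with the neurons over glia ratio. The 16 members called higher in neurons had a median length of 171 kb from start to end, against 30.5 kb for the other 21. Across the 37 genes the rank correlation of length with the ratio was 0.704, given as a description of genes that share the same libraries and the same free RNA. Whether intronic reads were counted is not given in the sources used here. Short members such as Vamp2 and Rab3a had ratios of 0.637 and 0.562, and long members such as Rims1 and Syt1 had ratios of 8.46 and 7.11. The part of length in the ratios was not tested.

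**Figure D2:**
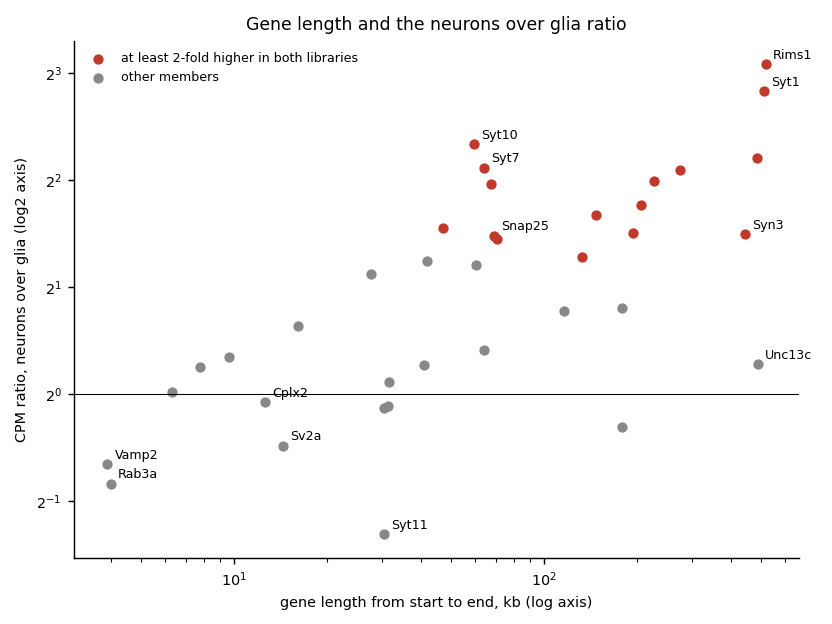
Each point is 1 of the 37 genes, with its length in kb on a log axis against the ratio of CPM in neurons over glia on a log2 axis; red points were at least 2-fold higher in neurons of both libraries. The red points have a median length of 171 kb, against 30.5 kb for the grey ones, and Syt11 is the lowest point.

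Inhibitory neurons, which release GABA, differed from excitatory neurons, which release glutamate, in 11 members: 4 were higher (5.61% of all genes tested) and 7 lower (6.16% of genes). The median ratio was 0.903 over the members and 1.11 over all genes, a shift of 0.15 on the log2 scale. Syt2, the fast calcium sensor paralogous to Syt1, stood at 52.5 and 30.4 CPM in inhibitory neurons of libraries 1 and 2, against 5.56 and 5.85 CPM in excitatory neurons, a ratio of 7.17 (6.01 to 8.58, and 5.19 to 16.9 over the settings). Rab3b, a vesicle GTPase, stood at 128 and 114 CPM in inhibitory neurons, against 16.3 and 23.8 CPM in excitatory neurons, a ratio of 5.97 (5.41 to 6.58, and 4.78 to 9.32 over the settings). Unc13c, which encodes the priming factor Munc13-3 known from cerebellum, stood at 141 and 105 CPM in inhibitory neurons, against 23.0 and 28.9 CPM in excitatory neurons, a ratio of 4.69 (4.28 to 5.14). The values of inhibitory and excitatory neurons did not overlap between libraries for these 3. Both Syt2 and Unc13c were lower outside 1 subclass: outside parvalbumin neurons, inhibitory neurons held Syt2 at 7.84 and 5.99 CPM, and outside somatostatin neurons they held Unc13c at 11.7 and 16.8 CPM. Rab3c, another vesicle GTPase, had a ratio of 2.37.

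The members lower in inhibitory neurons were led by Sv2b, an SV2 paralogue known from glutamatergic terminals. It stood at 28.0 and 57.9 CPM in inhibitory neurons, against 279.5 and 294 CPM in excitatory neurons, a ratio of 0.152 (0.136 to 0.170, and 0.0169 to 0.216 over the settings). Its pooled level in inhibitory neurons was 43.6 CPM (39.0 to 48.6), an interval that reaches its free RNA limit of 39.2 CPM. Stx1a, a syntaxin of the plasma membrane, stood at 58.9 and 82.9 CPM in inhibitory neurons, against 233 and 233 CPM in excitatory neurons, a ratio of 0.307 (0.280 to 0.335, and 0.138 to 0.357 over the settings). Syt7 stood at 114.7 and 142 CPM in inhibitory neurons, against 337 and 359.7 CPM in excitatory neurons, a ratio of 0.369 (0.345 to 0.394). Syt10, Syt16, Syt17 and Unc13b were lower with ratios between 0.372 and 0.468, and Syt10 lost its call with equal weight for each nucleus. Unc13b lost its call when doublets were kept or clusters were coarser, with ratios up to 0.507. Sv2a and Cplx1 had ratios of 2.03 and 1.99 and did not pass 2-fold in both libraries.

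Striatal projection neurons, the GABA projection neurons of the striatum, differed from the other inhibitory neurons in 10 members: 7 were higher (5.49% of all genes tested) and 3 lower (8.44% of genes). This comparison shares its inhibitory nuclei with the one above. The median ratio was 0.931 over the members and 0.914 over all genes, a shift of -0.13 on the log2 scale. Syt6, a synaptotagmin known from the sperm acrosome, stood at 220.1 and 188 CPM in striatal neurons of libraries 1 and 2, against 16.4 and 30.6 CPM in inhibitory neurons, a ratio of 8.27 (7.02 to 9.79, and 6.15 to 14.3 over the settings). Syt10, a calcium sensor known from the olfactory bulb, stood at 25.6 and 30.2 CPM in striatal neurons, against 3.33 and 4.59 CPM in inhibitory neurons, a ratio of 7.25 (4.81 to 11.2, and 4.76 to 26.3 over the settings). Sv2c, the SV2 paralogue known from basal ganglia, stood at 174 and 169.7 CPM in striatal neurons, against 37.2 and 33.9 CPM in inhibitory neurons, a ratio of 4.81 (4.17 to 5.56). Both libraries put the striatal class above the inhibitory class for all 3, as the call requires. The call of Syt10 was lost in library 1 alone and with a minimum of 200 UMIs, where too few UMIs were counted.

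Unc13c stood at 368 and 369 CPM in striatal neurons, against 141 and 105 CPM in inhibitory neurons, a ratio of 3.01 (2.77 to 3.28). Syn3, a synapsin, had a ratio of 2.43 and Syt9, a fast calcium sensor, one of 3.0, which like that of Syt10 was lost in library 1 alone and at 200 UMIs. Sv2b had a ratio of 2.55, but it lost its call with doublets kept (1.77), with finer clusters and with equal weight for each nucleus. Rab3b was lower, at 29.4 and 33.7 CPM in striatal neurons, against 128 and 114 CPM in inhibitory neurons, a ratio of 0.270 (0.222 to 0.325, and 0.156 to 0.310 over the settings). Syt17 and Syt13 were lower too, with ratios of 0.284 and 0.437, and both were at or under their free RNA limit in striatal neurons. Among striatal neurons, Rab3b stood at 38.7 and 42.6 CPM in the direct pathway nuclei of libraries 1 and 2, against 7.09 and 12.8 CPM in the indirect pathway nuclei. A Rab3b UMI was found in 95 of 971 direct and 12 of 406 indirect pathway nuclei. Library 1 held 100 of the indirect pathway nuclei. The pathways were not among the 15 comparisons, so no share over all genes is given. The direct pathway name pools several clusters, and which of them held the Rab3b UMIs was not tested. Syt6, Sv2c and Unc13c differed less between the pathways, at 202, 176 and 363 CPM in the direct pathway against 194, 171 and 379 CPM in the indirect pathway.

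**Figure D3:**
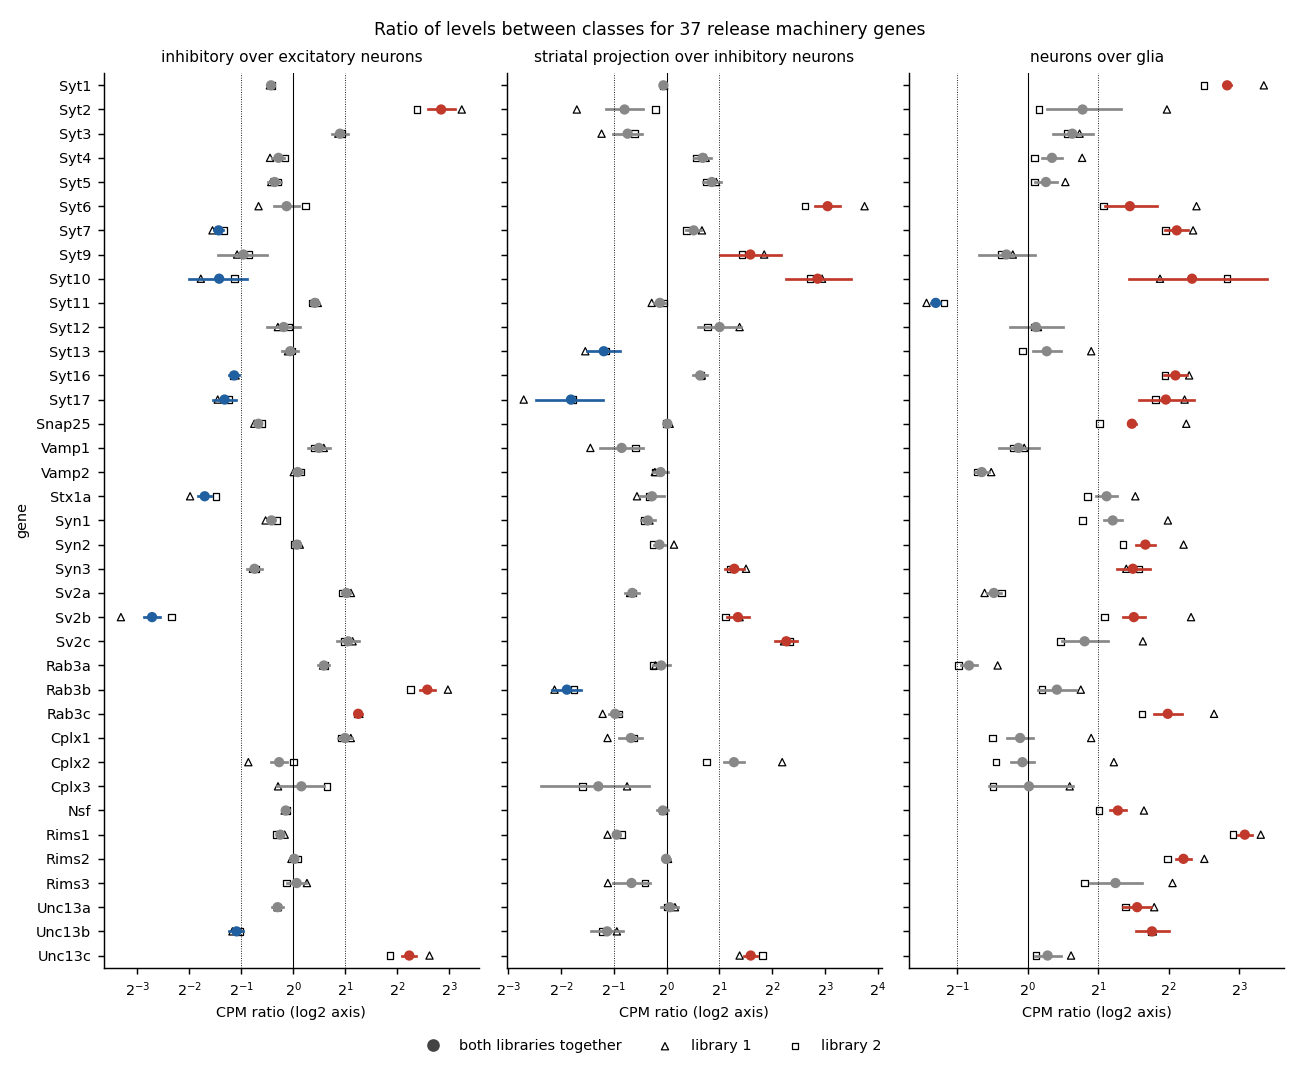
Each panel gives the CPM ratio of 1 comparison for the 37 genes on a log2 axis; filled circles with lines are both libraries together with the 95% counting interval, and open symbols are the libraries. Red marks members at least 2-fold higher and blue members at least 2-fold lower in both libraries: 4 and 7 for inhibitory over excitatory neurons, 7 and 3 for striatal projection over inhibitory neurons, 16 and 1 for neurons over glia.

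Paralogue choice within a family is given as the share of the family's UMIs, which can be compared between classes but not between genes, because gene length sets part of it. Among the families of 2 or 3 paralogues, SV2 had the largest difference between inhibitory and excitatory neurons. Sv2a held 36.4% (34.1 to 38.7%) of SV2 UMIs in striatal neurons, 76.2% (74.5 to 77.8%) in inhibitory neurons and 29.1% (28.4 to 29.8%) in excitatory neurons. Sv2b held 25.1%, 13.1% and 66.9% in the same order of classes. Sv2c held 38.6% in striatal neurons, 10.7% in inhibitory neurons and 3.99% in excitatory neurons. Each of the 3 classes thus had a different SV2 gene with a larger share than in either of the others. Sv2a is the binding site of the antiseizure drug levetiracetam.

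In the Munc13 family, Unc13c held 70.4% (68.4 to 72.4%) in striatal neurons, 39.8% (37.8 to 41.8%) in inhibitory neurons and 8.32% (7.83 to 8.84%) in excitatory neurons, while Unc13b held 5.72%, 21.3% and 44.6% in that order. Complexin shares differed as well: Cplx1 held 30.8% (27.5 to 34.3%) in striatal, 61.0% (58.1 to 63.8%) in inhibitory and 40.1% (38.6 to 41.5%) in excitatory neurons, with Cplx2 taking most of the rest. Rab3c held a similar share in all 3, 55.7%, 60.2% and 60.04%, while Rab3b held 9.51% in striatal, 19.3% in inhibitory and 7.68% in excitatory neurons. The share of 7 members differed by at least 10 points between inhibitory and excitatory neurons in both libraries: Sv2a, Sv2b, Rab3a, Cplx1, Cplx2, Unc13b and Unc13c. When UMIs were divided by gene length, 4 members passed. Of the fast sensor pair, Syt2 held 0.820% in striatal, 1.36% in inhibitory and 0.142% in excitatory neurons.

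**Figure D4:**
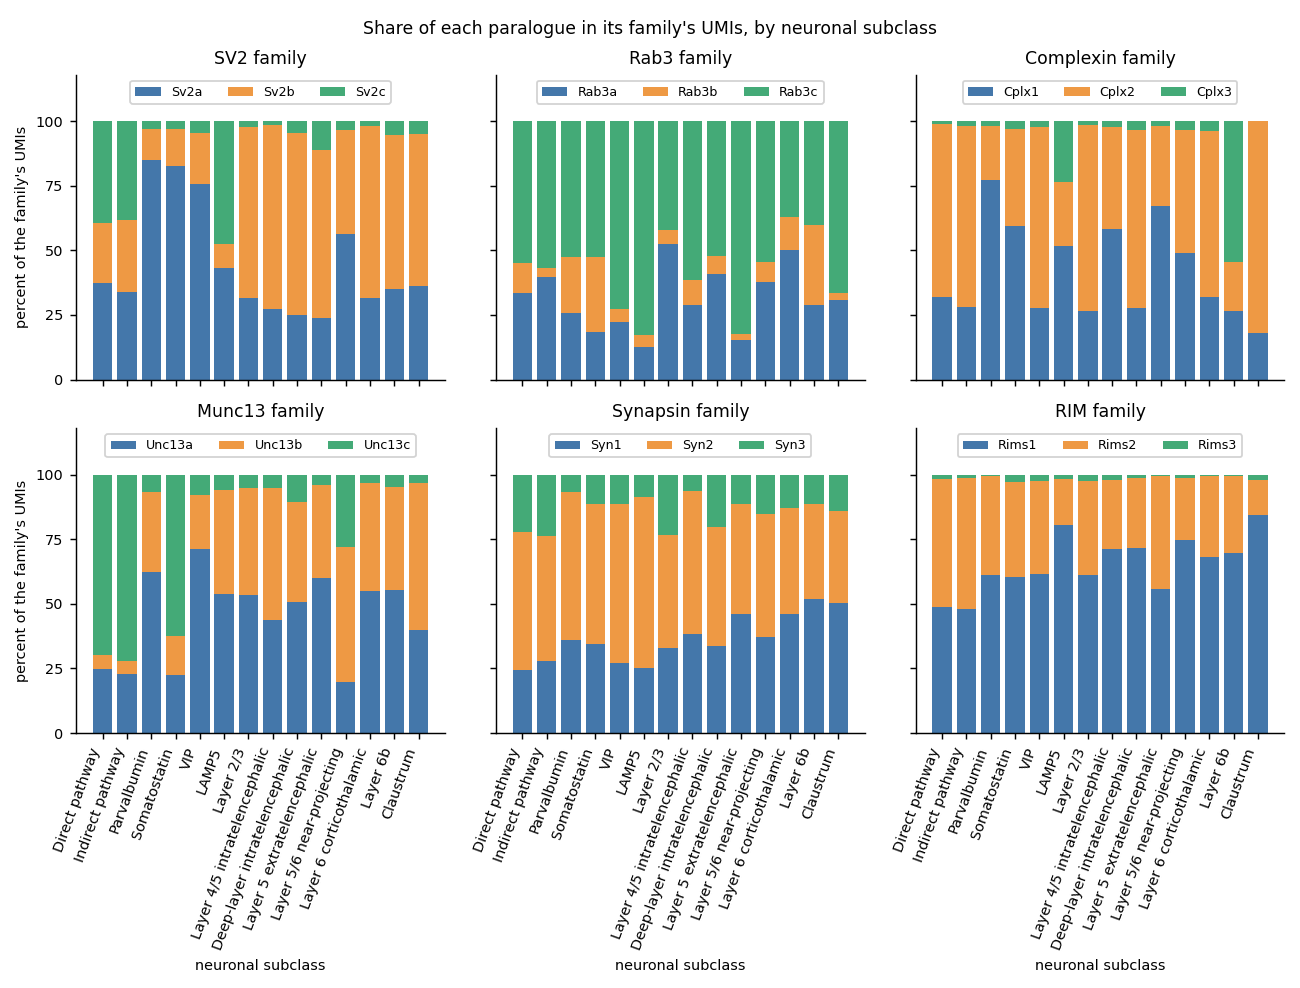
Stacked bars give each paralogue's percent of its family's UMIs in 14 neuronal subclasses for the SV2, Rab3, complexin, Munc13, synapsin and RIM families, both libraries together. Sv2c fills 47.7% of SV2 in LAMP5 neurons, Unc13c 62.6% of Munc13 in somatostatin neurons and Cplx3 54.5% of complexin UMIs in layer 6b neurons.

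Within the inhibitory and excitatory classes, 12 subclasses were each set against the other nuclei of their class, which gave 68 calls on 21 members, 19 of them higher and 49 lower. Over 436 tests of members in these comparisons, 4.36% were called higher and 11.2% lower, against 2.14% and 5.06% of all tests of all genes, which also had more lower than higher calls. The 21 members are 56.8% of the 37, against 32.4% of all genes called in any subclass comparison. Syt6 had 2 higher and 8 lower calls, Unc13c 2 and 6, Cplx3 2 and 5, Syt2 2 and 4, Rab3b and Sv2c 2 and 3 each, and Rims3 1 and 4. Over all 106 calls, the counting interval of 18 reached within 2-fold. Neither the members nor the other release genes described further on entered the clustering. Shares of nuclei with a UMI are given after thinning each nucleus to 1000 UMIs, which left out no parvalbumin or somatostatin nucleus, 2 LAMP5, 10 corticothalamic, 1 layer 6b and 4 layer 2/3 nuclei. The subclasses were also ranked, leaving out striatal nuclei and nuclei without a subclass. Striatal projection neurons held Syt6 at 197 CPM and Unc13c at 369 CPM. The highest ranked subclass held 166 CPM of Syt6 (layer 6 corticothalamic) and 313 CPM of Unc13c (somatostatin). Within this ranking, a clear highest subclass was found for 17 of 37 members, against 14% of all genes tested, again not matched for level.

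The region around the start of 4 such members and of Syn1, which had no call in any comparison, is shown so that their sequences can be set side by side. The sequences are RefSeq promoters of build GRCm38.p6, from 250 bases before to 50 bases after the gene's start, written 5' to 3' on the gene's strand. Capitals mark matches on either strand to GGGCGG (the GC box bound by Sp factors), TGACGTCA (the cyclic AMP response element), its part TGACG, and TTCAGCACC (the left part of the RE1 element bound by the repressor REST). TATAAA was searched too and is in none of the 5.
Syt2 (chr1:134646362-134646661, plus strand): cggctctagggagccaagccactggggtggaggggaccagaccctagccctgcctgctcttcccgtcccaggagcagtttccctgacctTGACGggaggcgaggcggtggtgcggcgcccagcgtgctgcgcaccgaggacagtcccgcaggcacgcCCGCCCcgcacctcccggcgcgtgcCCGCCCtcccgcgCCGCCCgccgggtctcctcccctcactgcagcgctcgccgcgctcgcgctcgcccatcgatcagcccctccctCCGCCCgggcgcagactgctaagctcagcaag
Syt6 (chr3:103574995-103575294, plus strand): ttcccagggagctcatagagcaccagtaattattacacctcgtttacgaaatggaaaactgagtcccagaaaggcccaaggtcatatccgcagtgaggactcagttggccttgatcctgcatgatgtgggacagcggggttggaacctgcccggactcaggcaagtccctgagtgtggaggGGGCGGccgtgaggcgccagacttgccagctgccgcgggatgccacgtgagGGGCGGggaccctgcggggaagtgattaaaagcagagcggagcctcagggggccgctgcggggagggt
Cplx3 (chr9:57606232-57606531, minus strand): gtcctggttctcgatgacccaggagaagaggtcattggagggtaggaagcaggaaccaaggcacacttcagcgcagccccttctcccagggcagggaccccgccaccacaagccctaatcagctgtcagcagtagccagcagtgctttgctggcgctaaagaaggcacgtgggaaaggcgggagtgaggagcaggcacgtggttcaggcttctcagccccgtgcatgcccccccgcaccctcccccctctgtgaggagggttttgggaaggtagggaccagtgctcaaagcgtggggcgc
Sv2c (chr13:96132528-96132827, minus strand): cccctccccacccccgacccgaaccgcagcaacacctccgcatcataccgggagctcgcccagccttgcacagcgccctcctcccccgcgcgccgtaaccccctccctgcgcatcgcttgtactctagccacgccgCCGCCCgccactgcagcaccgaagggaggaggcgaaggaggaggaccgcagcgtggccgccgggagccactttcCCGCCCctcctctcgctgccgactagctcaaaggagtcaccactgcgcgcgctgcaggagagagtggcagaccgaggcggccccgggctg
Syn1 (chrX:20920869-20921168, minus strand): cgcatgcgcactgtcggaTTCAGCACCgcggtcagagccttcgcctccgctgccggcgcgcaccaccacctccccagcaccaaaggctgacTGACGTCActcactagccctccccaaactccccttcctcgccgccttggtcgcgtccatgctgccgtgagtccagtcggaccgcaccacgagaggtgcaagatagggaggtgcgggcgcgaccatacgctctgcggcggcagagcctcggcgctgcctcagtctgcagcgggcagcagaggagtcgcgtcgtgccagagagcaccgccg

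Syt2, Syt6 and Sv2c hold the GC box, Cplx3 holds none of the searched motifs, and Syn1 holds TGACGTCA and the RE1 part. Promoters of 27 of the 37 members were in the RefSeq table. GGGCGG was in 22 of these 27 (81.5%), against 35.7% of 32851 promoters of the same length. TTCAGCACC was in 2, Syn1 and Unc13a (7.41%), against 0.371% of all promoters. TGACGTCA was in Syn1 alone among the 27 (3.70%), against 1.79%, and TGACG, which lies inside it, was in 8 (29.6%), against 20.8%. TATAAA was in Sv2b and Rab3b (7.41%), against 13.6%. The median GC content was 62.3% in the 27 members and 52.7% in all promoters. A match describes letters in this window and does not show that a factor binds.

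Parvalbumin neurons, fast-spiking interneurons that contact cell bodies and axons, had 1 member higher (2.1% of all genes tested) and 7 lower (3.5% of genes) than the other inhibitory neurons; 35 members had enough UMIs in the inhibitory class. Syt2, whose promoter is the first shown above, was the one that was higher. It stood at 119.9 and 66.4 CPM in parvalbumin neurons of libraries 1 and 2, against 7.84 and 5.99 CPM in the other inhibitory neurons, a ratio of 13.4 (9.19 to 20.03, and 10.6 to 62.0 over the settings). A Syt2 UMI was found in 6.89% of parvalbumin nuclei thinned to 1000 UMIs (20.1% before thinning), against 0.605% of somatostatin nuclei (2.18% before thinning). Of 880 microglial nuclei, which should lack it and had a median of 693 UMIs, 0.455% held a Syt2 UMI before thinning; the 885 parvalbumin nuclei had a median of 3193 UMIs. Unc13c was lower in parvalbumin neurons, at 12.5 and 13.9 CPM in parvalbumin neurons, against 227 and 166 CPM in the other inhibitory neurons, a ratio of 0.0679 (0.0482 to 0.0932, and 0.0340 to 0.0895 over the settings). Sv2c, Syt6, Rims3, Cplx3, Syt16 and Syt5 were lower with ratios between 0.175 and 0.434, and the calls of Syt6, Syt16 and Cplx3 were lost under other settings. Cplx1 had its clear highest level in parvalbumin neurons, 119 CPM against 86.2 CPM in somatostatin neurons, and held 77.2% of complexin UMIs there.

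Somatostatin neurons, which contact dendrites, had 3 members higher (1.82% of genes) and 2 lower (2.64% of genes). Unc13c led. It stood at 372 and 259.6 CPM in somatostatin neurons of libraries 1 and 2, against 11.7 and 16.8 CPM in the other inhibitory neurons, a ratio of 21.8 (17.1 to 28.3, and 5.31 to 47.1 over the settings). The other inhibitory neurons lay far below in both libraries, and Unc13c UMIs were found in 23.6% of thinned somatostatin nuclei, against 0.678% of parvalbumin nuclei (43.4% and 3.73% before thinning). In unthinned microglia the share was 1.25%, and somatostatin nuclei had a median of 3111 UMIs. Rab3b stood at 224 and 167 CPM in somatostatin neurons, against 74.5 and 82.9 CPM in the other inhibitory neurons, a ratio of 2.47 (2.16 to 2.82), and lost its call with doublets kept and with coarser clusters. Syt6 had a ratio of 2.34, but it was 0.882 with a minimum of 1000 genes per nucleus and 0.973 with the members left in the clustering. Syt2 and Sv2c were lower, with ratios of 0.116 and 0.183.

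VIP neurons, which mainly contact other interneurons, had 1 member higher (2.22% of genes) and 3 lower (3.67% of genes). Cplx2, the complexin of many forebrain terminals, stood at 74.4 and 175 CPM in VIP neurons of libraries 1 and 2, against 22.3 and 62.0 CPM in the other inhibitory neurons, a ratio of 3.02 (2.42 to 3.76, and 2.27 to 7.61 over the settings). It held 70.% (62.5 to 76.8%) of complexin UMIs in VIP neurons. Syt2, Unc13c and Rab3b were lower, with ratios of 0.143, 0.103 and 0.263. Cplx2 was higher in library 2 than in library 1 in VIP and in the other inhibitory neurons alike. VIP neurons were the higher group within each library, as the call requires.

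LAMP5 neurons, which include the neurogliaform cells of superficial cortex, had 3 members higher (2.43% of genes) and 4 lower (4.97% of genes). Sv2c stood at 245 and 268 CPM in LAMP5 neurons of libraries 1 and 2, against 9.74 and 10.4 CPM in the other inhibitory neurons, a ratio of 25.4 (19.2 to 33.9, and 22.3 to 525 over the settings). A Sv2c UMI was found in 21.4% of thinned LAMP5 nuclei, against 0.791% of parvalbumin nuclei (41.2% and 2.82% before thinning). It was 1.70% in unthinned microglia, and LAMP5 nuclei had a median of 2634 UMIs. Cplx3, a lipid-anchored complexin known from retinal ribbon synapses, stood at 38.1 and 33.5 CPM in LAMP5 neurons, against 2.20 and 4.77 CPM in the other inhibitory neurons, a ratio of 10.1 (5.65 to 18.2, and 7.02 to 17.3 over the settings). LAMP5 neurons were the higher group in both libraries for both genes, as the call requires. The Cplx3 call needed both libraries together to reach 50 UMIs. Rims1 stood at 3038 and 2931 CPM in LAMP5 neurons, against 1126 and 1072 CPM in the other inhibitory neurons, a ratio of 2.72 (2.60 to 2.85). Rab3c held 82.7% of Rab3 UMIs in LAMP5 neurons. Unc13c, Syt2, Syt6 and Rab3b were lower, with ratios between 0.0952 and 0.327.

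**Figure D5:**
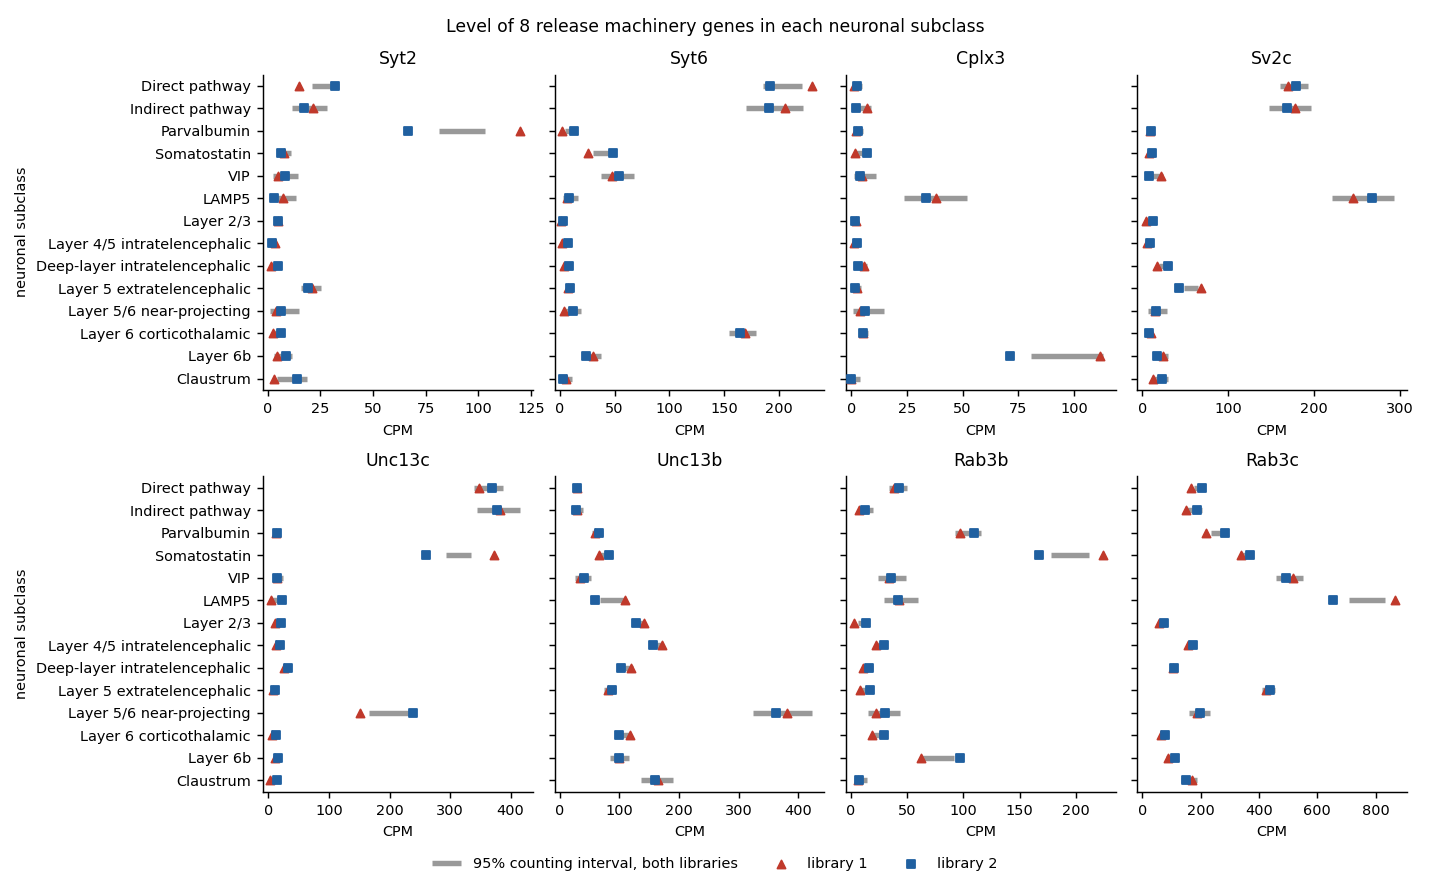
Each panel gives the CPM of 1 gene in 14 neuronal subclasses; grey bars are the 95% counting interval of both libraries together, triangles library 1 and squares library 2. Syt2 peaks in parvalbumin neurons, Cplx3 in layer 6b neurons, Sv2c in LAMP5 and striatal neurons, and Unc13c in striatal and somatostatin neurons; Syt6 stands out in layer 6 corticothalamic and striatal neurons.

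Layer 6 corticothalamic neurons, which project to the thalamus, had 2 members higher (1.6% of genes) and 4 lower (5.86% of genes) than the other excitatory neurons. Syt6 stood at 169 and 164 CPM in corticothalamic neurons of libraries 1 and 2, against 4.97 and 7.997 CPM in the other excitatory neurons, a ratio of 25.3 (21.8 to 29.6, and 19.1 to 94.3 over the settings). A Syt6 UMI was found in 14.3% of thinned corticothalamic nuclei, against 0.193% of layer 2/3 nuclei (43.9% and 1.22% before thinning, and 1.14% in unthinned microglia). The median depth of the corticothalamic nuclei was 3650.5 UMIs. Syt10 was higher with a ratio of 2.83. Syt17, a synaptotagmin relative known from the Golgi apparatus, was lower, at 3.45 and 8.35 CPM in corticothalamic neurons, against 58.0 and 73.0 CPM in the other excitatory neurons, a ratio of 0.0892 (0.0586 to 0.130, and 0 to 0.114 over the settings). Rab3c, Rims3 and Unc13c were lower with ratios between 0.314 and 0.413. Of the 6 corticothalamic markers, 3 were highest in this subclass.

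Layer 6b neurons, the remnant of the subplate, had 2 members higher (2.59% of genes) and 4 lower (7.42% of genes). Cplx3 stood at 112 and 71.1 CPM in layer 6b neurons of libraries 1 and 2, against 2.45 and 2.73 CPM in the other excitatory neurons, a ratio of 36.9 (28.2 to 48.4). It held 54.5% (48.2 to 60.7%) of complexin UMIs there, 66.9% in library 1 and 37.6% in library 2, and a Cplx3 UMI was found in 9.67% of thinned layer 6b nuclei (31.0% before thinning), against 0.322% of layer 2/3 nuclei (0.963% before thinning). Unthinned microglia gave 0.682%, and layer 6b nuclei had a median of 4336 UMIs. Rab3b stood at 62.2 and 97.1 CPM in layer 6b neurons, against 14.0 and 21.5 CPM in the other excitatory neurons, a ratio of 4.23 (3.43 to 5.18, and 3.66 to 7.26 over the settings). Syt17, Rims3, Syn2 and Syt4 were lower, with ratios of 0.0563, 0.320, 0.431 and 0.459. Cplx3 was thus high in LAMP5 and layer 6b neurons, and layer 6b exceeded LAMP5 with a ratio of 2.66 (1.76 to 4.15).

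Near-projecting neurons of layers 5 and 6 had 2 members higher (3.98% of genes) and 4 lower (9.93% of genes). Both that were higher were Munc13 genes. Unc13c stood at 151 and 239 CPM in near-projecting neurons of libraries 1 and 2, against 21.1 and 25.3 CPM in the other excitatory neurons, a ratio of 8.57 (7.01 to 10.4). Unc13b, which encodes Munc13-2, stood at 381 and 362 CPM in near-projecting neurons, against 140.3 and 132 CPM in the other excitatory neurons, a ratio of 2.73 (2.37 to 3.12). Syt9 had 0 UMIs in the 226 near-projecting nuclei, which is 2.23-fold lower when set at a floor of 3 UMIs over the subclass. The interval of its ratio ran from 0 to 0.555, so a difference of 2-fold was not shown. Syt12 had 1 UMI in these nuclei and a ratio of 0.111 (0.00282 to 0.623, and 0 to 0.367 over the settings). Its interval does not reach a 2-fold difference at its near end either. Syt17 and Syt6 were lower with ratios of 0.171 and 0.321.

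Layer 5 extratelencephalic neurons, which project to the brainstem and spinal cord, had 3 members higher (1.96% of genes) and 5 lower (5.12% of genes). Syt2 stood at 20.8 and 19.2 CPM in extratelencephalic neurons of libraries 1 and 2, against 3.78 and 4.61 CPM in the other excitatory neurons, a ratio of 4.75 (3.53 to 6.36, and 4.14 to 28.7 over the settings). Sv2c stood at 68.4 and 42.6 CPM in extratelencephalic neurons, against 10.9 and 15.0 CPM in the other excitatory neurons, a ratio of 4.31 (3.63 to 5.11, and 2.85 to 7.94 over the settings). Rab3c stood at 426 and 439 CPM in extratelencephalic neurons, against 124 and 135 CPM in the other excitatory neurons, a ratio of 3.33 (3.14 to 3.53). All 3 were higher in both libraries, as the call requires. Syt2 in these neurons stayed below its level in parvalbumin neurons, which exceeded it with a ratio of 4.58 (3.52 to 6.03). Rims3, a short RIM without the Rab3-binding domain, was lower with a ratio of 0.245, and Syt6, Syt10, Cplx3 and Unc13c with ratios between 0.270 and 0.346.

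Layer 2/3 neurons had 1 member higher (1.69% of genes) and 3 lower (3.66% of genes). Syn3 stood at 203 and 177 CPM in layer 2/3 neurons of libraries 1 and 2, against 77.8 and 74.4 CPM in the other excitatory neurons, a ratio of 2.50 (2.34 to 2.67). Syt6, Cplx3 and Rab3c were lower, with ratios of 0.0814, 0.268 and 0.367. Layer 4/5 intratelencephalic neurons had 1 member higher (1.59% of genes), Rims3 at 55.2 and 59.6 CPM in layer 4/5 neurons, against 24.8 and 26.6 CPM in the other excitatory neurons, a ratio of 2.23 (2.00 to 2.48). They had 6 lower (2.35% of genes), Syt2, Syt6, Syn3, Sv2c, Cplx2 and Cplx3, with ratios between 0.140 for Syt6 and 0.455 for Syn3. The Rims3, Syn3 and Sv2c calls were lost with coarser clusters. Neither Syn3 nor Rims3 had a clear highest subclass. Syn3 stood at 189.7 CPM in layer 2/3 and 183 CPM in deep-layer intratelencephalic neurons, and Rims3 at 57.4 CPM in layer 4/5 and 57.8 CPM in LAMP5 neurons.

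Deep-layer intratelencephalic neurons had 0 members higher (0.755% of genes) and 1 lower (3.35% of genes), Syt6 with a ratio of 0.244. Only 1 of the 6 markers of this subclass was highest in it. The deep-layer markers that were scored averaged 0.622 of their highest level in its cluster and 0.888 in the claustrum cluster. These names thus lie close in the deep-layer markers, though all 6 claustrum markers were highest in the claustrum. Claustrum neurons had 0 higher (2.98% of genes) and 6 lower (7.05% of genes). Rims2 stood at 241 and 253 CPM in claustrum neurons of libraries 1 and 2, against 706 and 641 CPM in the other excitatory neurons, a ratio of 0.370 (0.323 to 0.421). Cplx3 had 0 UMIs in the 177 claustrum nuclei, which is 1.96-fold lower when set at a floor of 3 UMIs over the subclass. The interval of its ratio ran from 0 to 0.634. A difference of 2-fold was thus not shown at this depth, and 5 calls remain without Cplx3. Syt6, Syt17, Rab3b and Unc13c were lower with ratios between 0.163 and 0.369, each on fewer than 10 UMIs in the claustrum. Syt1 and Syt4 had their clear highest level in the claustrum, with ratios of 1.29 (1.25 to 1.34) and 1.46 (1.25 to 1.70) to the next subclass.

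Across the 15 comparisons 30 members were called at least once and 7 were not: Syt3, Vamp1, Vamp2, Syn1, Sv2a, Rab3a and Cplx1. The 30 are 81.1% of the members, against 49% of all genes called in any of these comparisons. The 7 without a call include some of the paralogues regarded as the general ones of their family. Vamp2 stood at 105 and 153 CPM in striatal neurons of libraries 1 and 2, 123 and 179 CPM in inhibitory neurons and 122 and 163 CPM in excitatory neurons. Its ratios over the 15 comparisons ran between 0.637 and 1.31. Rab3a stood at 80.7 and 133 CPM in striatal neurons, 93.6 and 159 CPM in inhibitory neurons and 62.9 and 105 CPM in excitatory neurons, with ratios between 0.562 and 1.61. Vamp1, the other synaptobrevin, ran between 0.429 and 1.76, and Syn1 between 0.746 and 2.31. The missing calls do not show that the levels were equal.

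Small classes added 2 further patterns. Oligodendrocyte precursors held 14 members above their free RNA limit (19.8% of genes), more than any other non-neuronal class of at least 100 nuclei, and Unc13c was one of them, at 333 and 370.3 CPM in libraries 1 and 2. Astrocytes held it at 268 and 134 CPM, above free RNA, and oligodendrocytes at 6.08 and 15.2 CPM. An Unc13c UMI was found in 32.1% of precursor nuclei, against 0.817% of oligodendrocyte nuclei, at median depths of 1129 and 811 UMIs. The 59 cholinergic neurons held Sv2c at 271 and 291 CPM and Rab3b at 101 and 141 CPM. Sv2c UMIs were found in 67.8% and Rab3b UMIs in 54.2% of these nuclei, which had a median of 5896 UMIs.

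Other genes of the release pathway came from a list of 66, of which 65 were in the matrix. Between inhibitory and excitatory neurons 5 of 59 tested were higher (5.61% of all genes tested) and 4 lower (6.16% of genes). Sytl5, a synaptotagmin-like Rab27 effector, stood at 29.4 and 24.5 CPM in inhibitory neurons, against 1.22 and 1.78 CPM in excitatory neurons, a ratio of 17.7 (13.2 to 24.2), and Synpr, the vesicle protein synaptoporin, at 557 and 514 CPM in inhibitory neurons, against 65.8 and 102 CPM in excitatory neurons, a ratio of 6.32 (6.03 to 6.62). Baiap3, a Munc13 relative, was higher with a ratio of 6.404, and Cadps2, a priming factor of dense-core vesicles, was lower with a ratio of 0.345. Between striatal and inhibitory neurons 2 of 56 were higher (5.49% of genes) and 6 lower (8.44% of genes). Among the higher was Doc2b, a calcium sensor of spontaneous release, with 7.64. Between neurons and glia 17 of 59 were higher (11.7% of genes), led by the active zone protein Erc2 with 8.83. Lower were 8 (16.6% of genes), led by Rab3il1 with 0.120 and Stxbp3 with 0.122.

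In the inhibitory subclasses 54 of these genes were tested. VIP neurons had 3 higher (2.22% of all genes tested) and 4 lower (3.67% of genes). Cadps2 stood at 355 and 560.1 CPM in VIP neurons of libraries 1 and 2, against 30.5 and 43.0 CPM in the other inhibitory neurons, a ratio of 12.6 (10.8 to 14.9). Somatostatin neurons had 4 higher (1.82% of genes) and 1 lower (2.64% of genes), with Baiap3, Sytl5, Stxbp6 and Synpr between 3.02 and 4.58. Parvalbumin neurons had 0 higher (2.1% of genes) and 5 lower (3.5% of genes), led by Synpr with 0.0991. LAMP5 neurons had 1 higher (2.43% of genes), the RIM-binding protein gene Rimbp2 with 4.003. They had 5 lower (4.97% of genes), led by Stxbp6 with 0.0663. The Munc13 relative Baiap3 and the Munc13 gene Unc13c were both high in somatostatin neurons.

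In the excitatory subclasses 59 were tested in each. Claustrum neurons had 2 higher (2.98% of all genes tested), Synpr with 13.8 and Cadps2 with 4.95, and 4 lower (7.05% of genes). Near-projecting neurons had 2 higher (3.98% of genes), Stxbp2 with 5.99 and Ppfia4 with 3.24, and 2 lower (9.93% of genes). Extratelencephalic neurons had 3 higher (1.96% of genes) and 2 lower (5.12%), and layer 6b 1 higher (2.59%) and 3 lower (7.42%). Layer 2/3 had 1 higher (1.69% of genes) and 2 lower (3.66%), and layer 6 corticothalamic 0 higher (1.6%) and 5 lower (5.86%). Deep-layer intratelencephalic neurons had 0 higher (0.755% of genes) and 3 lower (3.35%), and layer 4/5 0 higher (1.59%) and 1 lower (2.35%). Stxbp6, also called amisyn, was lower in layer 6b with 0.0838, in layer 6 corticothalamic with 0.150 and in claustrum with 0.145, and higher in layer 5 extratelencephalic with 3.13 and in layer 2/3 with 2.92.

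Reads were counted over gene models, and 11 members overlap another protein-coding gene in the mm10 annotation. Of these 11, Syt1, Syn2 and Sv2c overlap one on their own strand, so that a UMI in the shared stretch may belong to either gene. Syt2 overlaps Ppp1r12b, and Syn1 overlaps Araf and Timp1, on the opposite strand. The share of such UMIs cannot be told from a count matrix and was not tested.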

How the data were processed

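Nuclei of pooled prefrontal cortex, 1 METH and 1 Control library, were measured by 10x 3' single-nucleus RNA-seq on an Illumina HiSeq, per the labels' protocols. The authors deposited 1 matrix of raw UMI counts per gene and barcode, with Cell Ranger 1.3.0, Seurat 3.1.4 and build mm10 named in the submitters' processing notes and software version 3.1.0 in the file header. The barcode filter, the gene models and the treatment of intronic reads are not given in the sources used here. The number after each barcode separates 2 libraries, and nothing in the files ties them to METH or Control, so they were used as 1 pooled sample and no paired or group test was made. Both libraries hold more barcodes than the 8000 nuclei that were loaded per the labels.

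From there, barcodes with at least 500 genes were kept, doublets were marked per library with Scrublet in scanpy 1.11.5 (10.0% in library 1 and 6.19% in library 2) and removed, and 3000 variable genes without the members and other release genes, 50 principal components and 20 neighbours gave 28 Leiden clusters (igraph 0.11.9, resolution 1). A second clustering within them gave 50, of which 37 were named from listed markers. The rule for naming and the second clustering were chosen after the data were seen, and the members and lists were chosen with earlier results of these data known. Unnamed nuclei were 5.85% of those kept. UMIs were summed per class and library and given as CPM. Intervals are exact Poisson, Clopper-Pearson or conditional ratio intervals at 95% (scipy 1.17.1), for counting error only. A member is named with its library values where it was called, and in full for at most 6 members per comparison. The 2-fold call was tested on simulated counts for inhibitory over excitatory neurons, drawn with counting error only. Clustering, naming, doublet removal, the free RNA limit and thinning were not tested in this way. Alternatives covered the gene minimum, doublets, cluster resolution, members in the clustering, single libraries, UMI minimum, fold, scaling, free RNA, weighting and gene length. Promoters came from RefSeq (GRCm38.p6), gene lengths and overlaps from GENCODE (GRCm38). Gene starts can differ between them. Cplx2 starts at base 54371349 of chromosome 13 in GENCODE, and its RefSeq promoter window begins at base 54302306. Protein sequences were not used here. The values of 1 other gene of the pathway are not reported here.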

Additional observations from a re-analysis of the deposited data

How the results depend on the processing

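No paired analysis was possible because each group had 1 pooled library and no label ties a library to a group. Of 132 counts recomputed under 14 other settings, 114 stayed within 1.5 times the reported count and 18 did not. With a minimum of 1000 genes per nucleus, 30 members had a clear highest class in place of 18. The somatostatin comparison called 3 members in place of 5 with doublets kept and at resolution 0.5, and 8 after subtraction of the free RNA limit and at 1.5-fold. The VIP comparison called 7 in place of 4 with the members left in the clustering and in library 1 alone, 10 after free RNA subtraction and 8 at 1.5-fold. Striatal projection over inhibitory neurons called 17 in place of 10 in library 1 alone, 18 after free RNA subtraction and 22 at 1.5-fold. The excitatory subclasses together called 70 in place of 44 in library 1 alone, where the call needs 1 library and not both, and 78 at 1.5-fold. Neurons over glia called 34 in place of 17 after free RNA subtraction. Inhibitory over excitatory neurons called 18 in place of 11, and LAMP5 neurons 11 in place of 7, at 1.5-fold. Per kb of gene length, 4 members in place of 7 differed by 10 points in family share. Apart from the lower fold, fewer libraries and subtraction, which change the call by construction, the cause was not tested.

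Of 1344 ratios recomputed, 2 changed direction, both for Syt6 in somatostatin over the other inhibitory neurons: 0.882 with a minimum of 1000 genes and 0.973 with the members left in, against 2.34 as reported. Of the 106 calls, 75 held under every setting that gave a value and 31 were lost under at least 1. The lower fold and the removal of the low-count filter could not lose a call. A single library could lose one only through the UMI minimum. Calls of Syt2 in parvalbumin, Unc13c in somatostatin, Sv2c in LAMP5, Syt6 in layer 6 corticothalamic and Cplx3 in layer 6b neurons were among the 75. Calls lost and not named above with their comparison were those of Syt6 and Rab3b in LAMP5, Syt2 and Cplx2 in layer 4/5, Cplx3 and Rims3 in layer 5 extratelencephalic, Rab3c in layer 6 corticothalamic, Syt4 and Syn2 in layer 6b, and Rab3b and Unc13c in claustrum neurons, each of them a lower call. Depth limits the low members most: Cplx3 had 326 UMIs in all named classes, and glial nuclei had medians under 1200 UMIs in astrocytes, oligodendrocytes, precursors and microglia.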
